A study of Arabidopsis thaliana with 7 samples.

Results

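Of the 7 arrays of the study 2 are compared here. Rosettes of an Arabidopsis thaliana line with a T-DNA knockout of WRKY18, taken after treatment with the bacterium Pst-DC3000, were compared with Col-0 wild-type rosettes after the same treatment. The comparison covered all 22746 probe sets of the array that are not controls, out of 22810, whether or not a gene name was known for them. Each side was 1 array, so a log2 ratio describes these 2 arrays and carries no p-value or standard error. No difference given here can be separated from the variation between plants or arrays of a single genotype.

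The 7 arrays of the study were, in the order used here, the wrky18 knockout after Pst-DC3000, the wrky18 wrky40 double knockout after Pst-DC3000, the single knockouts of WRKY40, WRKY53 and WRKY60 after Pst-DC3000, Col-0 after Pst-DC3000, and Col-0 after a MgCl2 mock treatment. All plants were 14 days old, entire rosettes were collected, and every group had grown at 22 °C by day and 19 °C by night, with 10 hours of light, in a soil mix treated with the insecticide imidacloprid. No knockout was sampled without the bacterium. The positions of the insertions, the number of lines per gene, the number of plants per array and the time of harvest are not given in the sources used here.

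WRKY proteins are plant transcription factors that bind W-box elements in promoters. WRKY18, WRKY40 and WRKY60 make up group II-A, can pair with each other, and are known in Arabidopsis leaves as partly redundant regulators of defence, with WRKY18 and WRKY40 acting together to hold back responses to Pseudomonas syringae. Pst-DC3000 is a virulent strain of that species and makes coronatine, a mimic of the plant hormone jasmonate.

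MAS5 signals, linear brightness values scaled to a common mean on each array, were used as deposited. Signals under a floor of 22.1, found by averaging the 40th percentile of every array, were raised to the floor before log2 was taken. Where the dimmer of 2 signals lay under the floor, the fold is a lower bound, written with "at least". A probe set was counted when the wrky18 array lay at least 2-fold above or below the Col-0 Pst array, and called measured when its mean signal over the 7 arrays reached the floor, as 13665 did. A signal from a whole rosette cannot tell fewer cells of a type apart from less RNA per cell.

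The arrays of the comparison resembled each other in their 3' to 5' ratios, but differed in the spike-in and 25S controls. The 3' to 5' signal ratio was 1.92 on the wrky18 array and 1.899 on the Col-0 Pst array for the actin control, and 1.01 and 1.10 for the GAPDH control. The 18 spike-in control probe sets stood higher on the wrky18 array, with a median ratio of 1.24 over the Col-0 Pst array and a range of 1.06 to 1.40. The 25S ribosomal RNA control had a signal of 1188 on the wrky18 array, the lowest of the 7 arrays, and 1865 on the Col-0 Pst array. The wrky60 array stood apart from the others, with a spike-in ratio of 6.95 over Col-0 Pst and a 25S signal of 14546. Its 3' to 5' ratio was 1.71 for GAPDH, and 2.77 for the ubiquitin control against 1.22 to 1.37 on the other arrays. Of the 3 root markers with a probe set, EXPA7 and EXPA18 lay under the floor on both arrays, and PYK10, a beta-glucosidase gene, had signals of 610.1 on the wrky18 array and 657 on the Col-0 Pst array. The rosette leaf gene RCA, which encodes Rubisco activase, had signals of 3523 and 3046 on these arrays. The 3 flower and seed markers with a probe set, SPT, DFR and UGT80B1, had signals of 28.3 to 54.2 on wrky18 and 24.7 to 49.5 on Col-0 Pst.

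WRKY18 itself has no probe set assigned to it alone in the annotation used here, and neither do WRKY40 and WRKY60, so the genotype was not checked by the level of a named WRKY18 transcript. Probe set 253485_at, which the annotation assigns to no single gene, had the lowest ratio of all. Its signal was 1.83 on the wrky18 array and 20.3 on the double knockout array, both under the floor, against 328 on the wrky40 array, 131 on wrky53, 124 on wrky60, 176 on Col-0 Pst and 189 on the mock array. The wrky18 signal lay at least 7.97-fold under that of Col-0 Pst, and the double knockout at least 14.8-fold under wrky40. Among all 22746 probe sets it was the only 1 on which both arrays that lack WRKY18 lay at least 2-fold below all 5 others, and 0 lay at least 2-fold above them.

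Probe set 259723_at, also assigned to no single gene, had the highest ratio of all, but its signal followed a different grouping of the arrays. It read 117 on wrky18, 107 on the double knockout, 112 on wrky40, 102 on wrky53 and 102 on wrky60, against 7.62 on Col-0 Pst and 6.54 on the mock array. The difference between wrky18 and Col-0 Pst was at least 5.31-fold. It was the only 1 of the 22746 probe sets on which all 5 knockout arrays lay at least 2-fold above both Col-0 arrays, and 0 lay at least 2-fold below them. The double knockout differed little from wrky40 here, with a log2 ratio of -0.06.

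**Figure D1:**
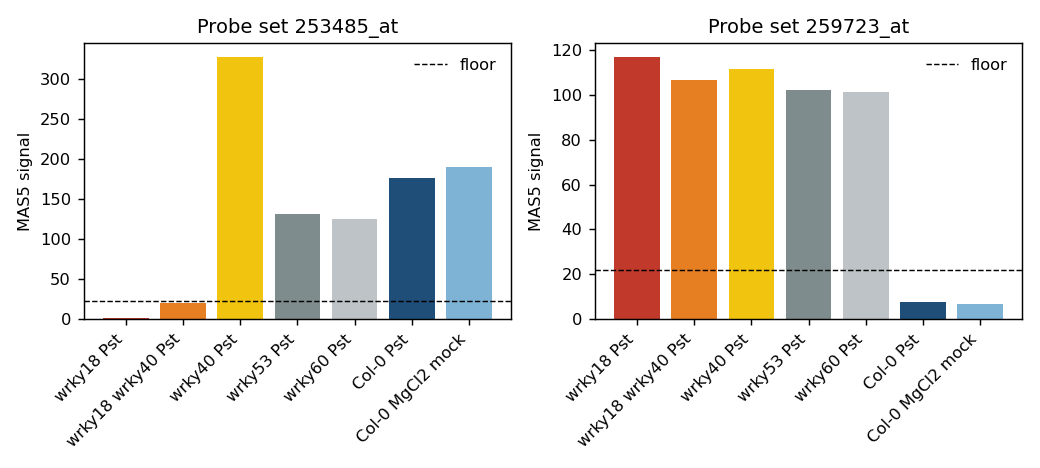
MAS5 signal (linear axis from 0) of probe sets 253485_at and 259723_at on each of the 7 arrays, 1 bar an array, with the floor of 22.1 as a dashed line. The bars of 253485_at lie under the floor on the 2 arrays that lack WRKY18, and those of 259723_at lie under it on the 2 Col-0 arrays.

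Beyond those probe sets the 2 arrays were close. Of the 13665 measured probe sets, 12572, or 92.0%, lay within 1.5-fold, with a median log2 ratio of -0.02 and an SD over probe sets of 0.33. A 2-fold or larger excess on the wrky18 array was found for 25 probe sets, 0.11% of those compared, and a 2-fold or larger deficit for 72, 0.317%. Together these 97 made up the second smallest count among the 10 pairs of Pst arrays that leave out wrky60, whose counts ran from 43 to 615 with a median of 205. Those pairs also differ in genotype.

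The higher probe sets had a median fold of 2.14, and 22 of the 25 were under 2.5-fold. The lower ones had a median fold of 2.15, with 62 of 72 under 2.5-fold. Most sat at modest brightness: their median mean signal was 72.4 for the higher and 65.9 for the lower set, 3 higher and 4 lower ones exceeded 10 times the floor, and 3 higher and 11 lower ones were at the floor on the dimmer of the 2 arrays. Among probe sets at 1 to 2 times the floor 0.721% passed 2-fold, at 2 to 5 times 1.11% and at 5 to 10 times 0.593%. At 10 to 50 times the floor the share was 0.182%, and at 50 times and above 0.456%. Just inside the threshold the smallest fold was 2.00. Just outside it were rpoB, a chloroplast RNA polymerase gene, with a log2 ratio of 0.997, and MAP1D, a methionine aminopeptidase gene, with -0.999.

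The counts and the split between higher and lower depended on the floor and on how the arrays were scaled. As deposited, 25.8% of the counted probe sets were higher. Quantile normalization gave 33 higher and 37 lower (47.1% higher), median centring 46 and 39 (54.1%), and cyclic loess 39 and 55 (41.5%). Scaling each array to its spike-in controls moved the median of measured probe sets to -0.33 and gave 3 higher and 416 lower. With the scaling as deposited, a lower floor at the 25th percentile gave 214 and 260 (45.1% higher), a higher floor at the 60th percentile 9 and 20, and log2 of signal plus the floor 6 and 10. The log2 ratio of 253485_at was -1.54 or lower with the higher floor, -4.41 or lower with the lower floor, and within -3.17 to -2.91 under the scalings. That of 259723_at was at least 0.95 with the higher floor, which no longer reached 2-fold, at least 3.82 with the lower floor, and 2.27 to 2.59 under the scalings. The values under the scalings are bounds too, since the dimmer signal lay under the floor.

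**Figure D2:**
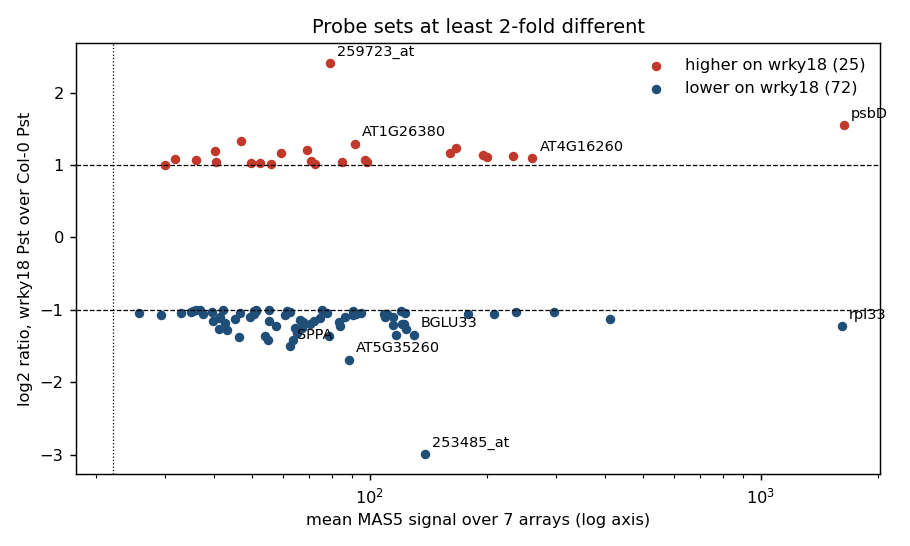
Log2 ratio of wrky18 Pst over Col-0 Pst against the mean MAS5 signal of the 7 arrays (log axis) for the 97 probe sets at least 2-fold different, 25 higher and 72 lower. Dashed lines mark 2-fold and the dotted line the floor of 22.1; most points lie just beyond 2-fold, and 253485_at and 259723_at lie farthest out.

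Of the 25 higher probe sets 15 had a named gene. AT1G26380, which encodes an FAD-linked oxidoreductase, had a signal of 70.0 on wrky18, 291 on the double knockout, 76.0 on wrky40, 38.3 on wrky53, 21.4 on wrky60, 28.5 on Col-0 Pst and 117 on the mock array. It was 2.45-fold higher on wrky18 than on Col-0 Pst, and highest on the double knockout. AT4G16260, a glycosyl hydrolase family 17 gene related to beta-1,3-glucanases, read 327 on wrky18, 801 on the double knockout, 296 on wrky40, 115 on wrky53, 97.2 on wrky60, 153 on Col-0 Pst and 38.8 on mock. Its signal was 2.14-fold higher on wrky18 than on Col-0 Pst, and the wrky40 array stood nearly as high as wrky18.

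AT5G03350, a legume lectin family gene, had signals of 133 on wrky18 and 148 on the double knockout, against 64.5 on wrky40, 87.4 on wrky53, 48.0 on wrky60, 64.5 on Col-0 Pst and 48.0 on mock. The 2 arrays without WRKY18 were thus above the other 5, and the ratio to Col-0 Pst was 2.06-fold. AT5G55450, a lipid transfer protein family gene, had signals of 265 on wrky18 and 356 on the double knockout, against 181 on wrky40, 146 on wrky53, 112 on wrky60, 120.1 on Col-0 Pst and 185 on mock. It was 2.20-fold higher on wrky18 than on Col-0 Pst. CYP71B24, a cytochrome P450 gene, read 54.1 on wrky18, 114 on the double knockout, 39.9 on wrky40, 13.1 on wrky53, 50.7 on wrky60, 26.9 on Col-0 Pst and 93.7 on mock. It was 2.01-fold higher on wrky18 than on Col-0 Pst, but the mock array, with an intact WRKY18, stood above wrky18.

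Of the other higher named genes, AT1G08940, a phosphoglycerate mutase family gene, was 2.05-fold higher, with 114 on wrky18 against 55.4 on Col-0 Pst, and 201 on the double knockout. AT2G35390, a ribose-phosphate pyrophosphokinase gene of nucleotide synthesis, was 2.02-fold higher. AT2G27080 was at least 2.00-fold higher, AT2G22100 2.23-fold, AT4G30150 2.11-fold and AT2G39500 2.04-fold. The remaining higher genes, psbD, ndhG, cox1 and ccb452, are encoded in the organelles.

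The 72 lower probe sets included 44 with a named gene, and 2 of these genes, AT5G35260 and AT1G43200, are annotated as pseudogenes. SPPA, a thylakoid-associated protease of the chloroplast, had a signal of 29.1 on wrky18, 55.2 on the double knockout, 72.5 on wrky40, 81.0 on wrky53, 41.1 on wrky60, 82.4 on Col-0 Pst and 76.9 on mock. It was 2.84-fold lower on wrky18 than on Col-0 Pst, and wrky18 was the lowest of the 7 arrays. BGLU33, a beta-glucosidase gene, read 56.2 on wrky18 against 125.4 to 175 on the other 6 arrays, and was 2.54-fold lower than the 143 of Col-0 Pst. VTC4, a phosphatase gene of ascorbate and inositol synthesis, read 38.2 on wrky18 against 61.2 to 142 on the others, and was 2.34-fold lower than the 89.3 of Col-0 Pst.

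Genes of other roles also had their lowest signal of the 7 arrays on wrky18. AT4G25280, a nucleoside-phosphate kinase family gene, had 30.2 on wrky18 against 65.3 to 79.9 on the other 6 arrays, a 2.37-fold difference from Col-0 Pst. AT5G04920, which encodes the vacuolar sorting protein VPS36, had 65.6 on wrky18 against 93.1 to 151 on the others, a 2.30-fold difference. AT4G37560, an acetamidase and formamidase family gene, was 2.31-fold lower and AT1G19715, a jacalin-type lectin gene, 2.33-fold lower. AT1G65950, of the ABC1 kinase family, was at least 2.58-fold lower, with 18.4 on wrky18 against 42.3 to 73.7 on the other arrays. AT3G49640 was at least 2.61-fold lower, AT1G27150, a tetratricopeptide repeat gene, 2.40-fold and AT3G60810 2.30-fold.

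The pseudogene AT5G35260 varied widely among the arrays, from 18.3 on wrky18 to 334 on wrky60, with 71.1 on Col-0 Pst, and was at least 3.22-fold lower on wrky18. AT1G43200 ran from 18.9 on wrky53 to 206 on wrky60, so its 2.38-fold lower signal on wrky18 was not the lowest value. AT5G66550, a Maf-like gene, had 24.7 on wrky18 and 15.8 on wrky40, against 60.1 on Col-0 Pst, and was 2.44-fold lower on wrky18. Of the probe sets without a single gene, 258933_at was 2.68-fold lower and 266042_s_at, which matches several genes, 2.52-fold higher.

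**Figure D3:**
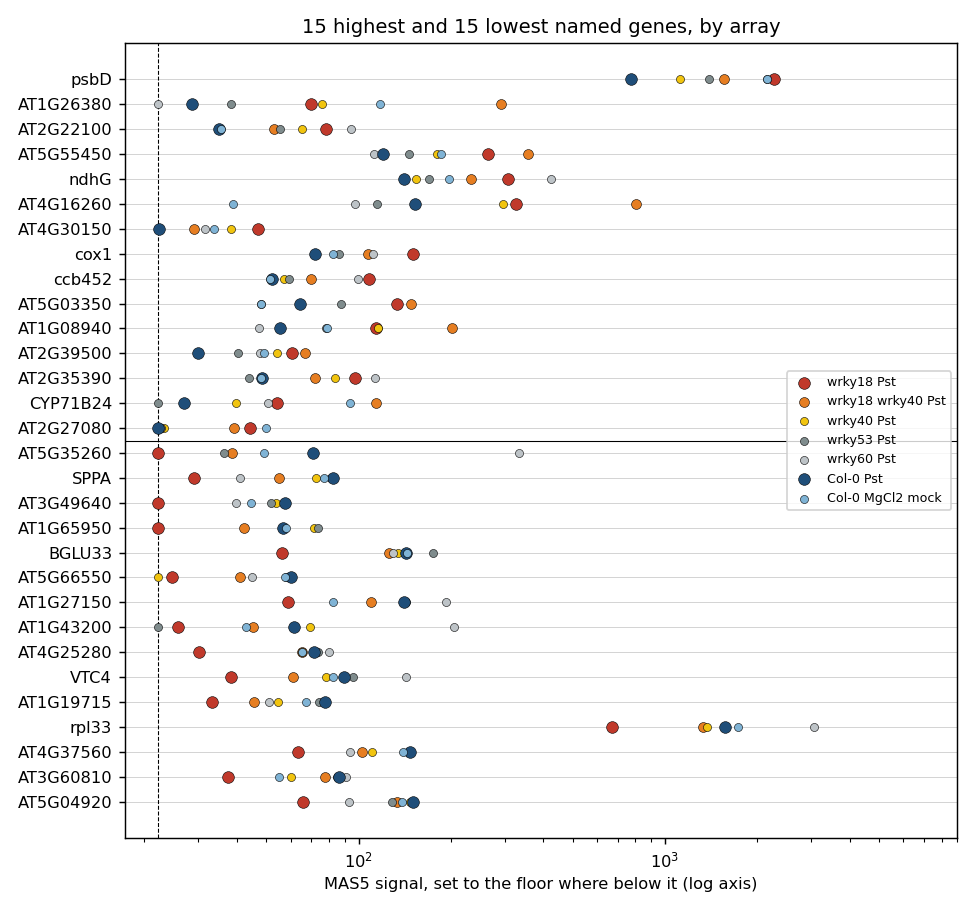
MAS5 signal (log axis, values under the floor drawn at the floor, dashed) of the 15 highest and 15 lowest named genes, 1 row a gene and 1 point an array. In the lower block the wrky18 points lie left of the Col-0 Pst points in every row, and in 13 of its 15 rows no other array lies lower.

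A second count took the probe sets on which the wrky18 array also stood 2-fold from other single knockouts, which have an intact WRKY18. The same wrky18 signal enters both comparisons, and the sets were picked by it. The second count therefore describes the sets and is no separate check of them. Against the median of the wrky40, wrky53 and wrky60 arrays, 3 of the 25 higher probe sets were also at least 2-fold higher (0.0132% of all compared) and 37 of the 72 lower ones at least 2-fold lower (0.163%). The 3 higher ones were AT4G16260, AT5G03350 and 244903_at, which has no single gene name. The lower ones included 253485_at, SPPA, BGLU33, VTC4, AT4G25280, AT3G60810 and rpl33.

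The wrky18 signal was the lowest of all 7 arrays for 53 of the 72 lower probe sets and the highest for 11 of the 25 higher ones. Over all measured probe sets wrky18 was the lowest of the 7 in 16.7% and the highest in 11.8%. The sets were picked for a low or a high wrky18 signal relative to Col-0 Pst, so these shares describe them and test nothing. The median signal of the 72 lower probe sets was 34.8 on wrky18, 60.3 on the double knockout, 66.4 on wrky40, 79.3 on wrky53, 79.1 on wrky60, 77.5 on Col-0 Pst and 64.5 on mock. For the 25 higher ones the median was 97.6 on wrky18, 107 on the double knockout, 65.1 on wrky40, 55.3 on wrky53, 94.3 on wrky60, 45.1 on Col-0 Pst and 49.0 on mock. These medians too follow from the choice in their wrky18 and Col-0 Pst values.

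The double knockout and the wrky40 knockout also differ by WRKY18, and neither array is used in the comparison of wrky18 with Col-0. Over all probe sets 136 were at least 2-fold higher on the double knockout than on wrky40 (0.598%) and 26 at least 2-fold lower (0.114%). Across the 13665 measured probe sets the 2 log2 ratios had a Pearson r of 0.13 and a Spearman rho of 0.096. Probe sets are not independent replicates, so these are descriptions.

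The 25 probe sets higher on wrky18 had a median log2 ratio of 0.47 between the double knockout and wrky40, against -0.03 over all measured probe sets. With the set called again under each alternative, its members and size changed. The median was then 0.00 for 214 probe sets with the lower floor and 0.60 for 9 with the higher floor. It was 0.21 for 6 with log2 of signal plus the floor and 0.30 for 33 with quantile normalization. For 46 with median centring it was 0.25, and for 3 with spike-in scaling 0.039. As deposited, 15 of the 25 lay above 0 and 10 below, where 44.6% of all measured ones lay above. At least 1.5-fold higher were 10 of the 25, against 4.34% of all measured, and 0 were at least 1.5-fold lower, against 2.71%. The 72 lower probe sets had a median of -0.06, close to the -0.03 of all measured ones. Of the 72, 29 were above 0 and 43 below, where 53.9% of all measured ones lay below. On each side 7 passed 1.5-fold, against 4.34% higher and 2.71% lower of all measured.

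At least 2-fold higher in both pairs were AT1G26380, AT4G16260, AT5G03350 and CYP71B24. On the double knockout over wrky40 they were 3.83-fold, 2.70-fold, 2.30-fold and 2.85-fold higher. AT5G55450 fell just short there at 1.97-fold. The count of 4 depended on the setting: it was 21 with the lower floor, 2 with the higher floor, 0 with log2 of signal plus the floor, 0 with spike-in scaling, 6 with quantile normalization and 7 each with median centring and cyclic loess. At least 2-fold lower in both were 253485_at and 245368_at, which has no single gene name and is named here after its values were seen. Probe set 245368_at had 22.6 on wrky18 and 24.6 on the double knockout, against 49.6 on wrky40, 51.4 on wrky53, 31.3 on wrky60, 50.4 on Col-0 Pst and 47.9 on mock. The count of 2 was 15 with the lower floor and 1 to 3 under the other alternatives. No probe set was at least 2-fold different in both pairs with opposite directions. Over all probe sets 0.598% were at least 2-fold higher on the double knockout over wrky40 and 0.114% lower. In sets of 25 and 72 a count of 0 is near those shares. SPPA, BGLU33 and VTC4 had log2 ratios of -0.39, -0.10 and -0.35 on the double knockout over wrky40.

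**Figure D4:**
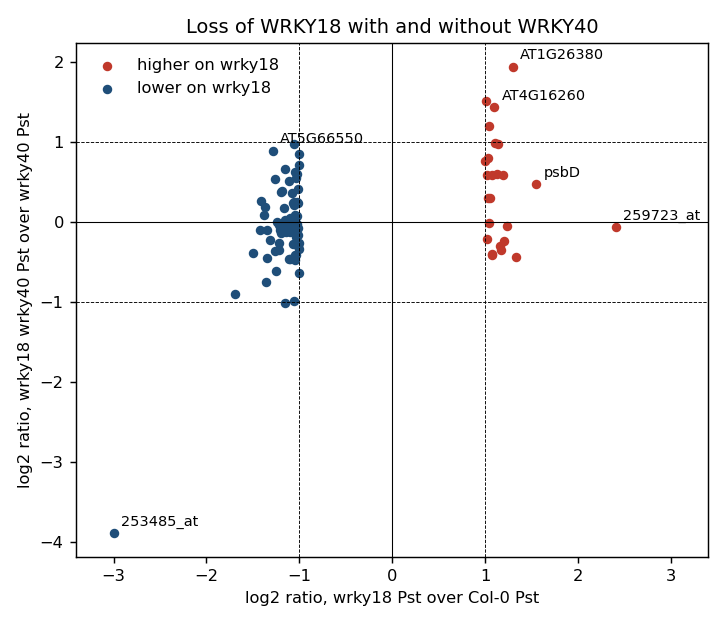
Log2 ratio of the wrky18 wrky40 double knockout over wrky40 (vertical) against that of wrky18 over Col-0 Pst (horizontal) for the 97 probe sets at least 2-fold different in the latter, with 2-fold as dashed lines. The 25 higher probe sets have a median of 0.47 on the vertical axis. Called again under other settings, the higher set had a median of 0.00 with the lower floor (214 probe sets). With spike-in scaling it was 0.039 (3 probe sets). The 72 lower ones have -0.06, and all measured probe sets have -0.03.

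Chloroplast genes encode core subunits of the photosystems, the cytochrome b6f complex, ATP synthase and the NDH complex, and parts of the plastid ribosome and RNA polymerase. Of 69 such genes with a named probe set 67 were measured, and 59 of these had a higher signal on wrky18 than on Col-0 Pst, with a median log2 ratio of 0.41 against -0.02 over all measured probe sets. Past 2-fold were psbD and ndhG on the higher side, and rpl33 and rpl36 on the lower. The summed signal of the measured genes was 119269 on wrky18, 95538 on the double knockout, 100336 on wrky40, 87157 on wrky53, 339313 on wrky60, 90253 on Col-0 Pst and 101287 on mock. The wrky18 array was thus the highest after wrky60.

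The chloroplast genes are among the brightest probe sets, and bright probe sets as a whole stood somewhat higher on wrky18. At 50 times the floor and above, 40 chloroplast genes had a median log2 ratio of 0.41 and the 399 other probe sets 0.20. Above 0 were 35 of these 40 genes and 86.5% of the others, so at this brightness the share above 0 was similar. At 10 to 50 times the floor, 19 chloroplast genes had a median of 0.47 and the others 0.02. The chloroplast median was 0.28 with quantile normalization, 0.24 with cyclic loess and 0.10 with spike-in scaling, where 43 of 67 lay above 0 and the median of measured probe sets was -0.33. The spike-in ratio of 1.24 moved the same way as these genes, and its part in the result was not tested. Between the double knockout and wrky40 the chloroplast median was 0.00, with 34 genes above 0 and 33 below.

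The groups of chloroplast genes did not move alike. All 5 photosystem I genes, all 6 cytochrome b6f genes, all 6 ATP synthase genes and all 9 NDH complex genes were above 0, with medians of 0.54, 0.33, 0.49 and 0.42. Of the other probe sets at 50 times the floor and above, 86.5% were above 0 too. Among photosystem II genes 14 of 15 were above 0, with a median of 0.47. psbD, which encodes the reaction centre protein D2, read 2264 on wrky18, 1556 on the double knockout, 1122 on wrky40, 1396 on wrky53, 2155 on wrky60, 773 on Col-0 Pst and 2156 on mock. It was 2.93-fold higher on wrky18 than on Col-0 Pst, but Col-0 Pst was the lowest of the 7 arrays and the mock array was close to wrky18. ndhG, an NDH complex subunit gene, had 308 on wrky18 against 141 on Col-0 Pst and 426 on wrky60, a 2.18-fold difference from Col-0 Pst. Col-0 Pst was again the lowest of the 7 arrays, with 154 on wrky40, 169 on wrky53, 198 on mock and 233 on the double knockout.

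The 14 ribosomal protein genes of the chloroplast had a median of 0.07, with 8 above 0 and 6 below, and a range of -1.22 to 0.46. rpl33, for a protein of the large ribosomal subunit, had 672 on wrky18, against 1328 on the double knockout, 1366 on wrky40, 1564 on wrky53, 3052 on wrky60, 1567 on Col-0 Pst and 1727 on mock. It was 2.33-fold lower than on Col-0 Pst, and wrky18 was the lowest array. rpl36 was 2.02-fold lower, with 77.4 on wrky18 against 95.8 to 188 on the other 6 arrays. On the double knockout over wrky40 the log2 ratios of rpl33 and rpl36 were -0.04 and -0.08.

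The 8 chloroplast genes below 0 were mostly neighbours in the gene order of the TAIR10.1 annotation. rpl33 and the adjacent rps18 had log2 ratios of -1.22 and -0.97. From rpoA, a gene of the plastid RNA polymerase, to rps19, 7 genes were measured, and 5 of them were below 0: rpoA with -0.47, rpl36 with -1.01, rps3 with -0.27, rpl22 with -0.50 and rps19 with -0.10. These 2 stretches, picked after their values were seen, held 7 of the 8 genes below 0. Among the other 58 measured chloroplast genes only psbM was below 0, at -0.03, and the median was 0.45. Probe sets without a single gene name were not counted here. These counts are of the deposited scaling: 52 of the 67 genes were above 0 with quantile normalization, 55 with cyclic loess and 43 with spike-in scaling.

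**Figure D5:**
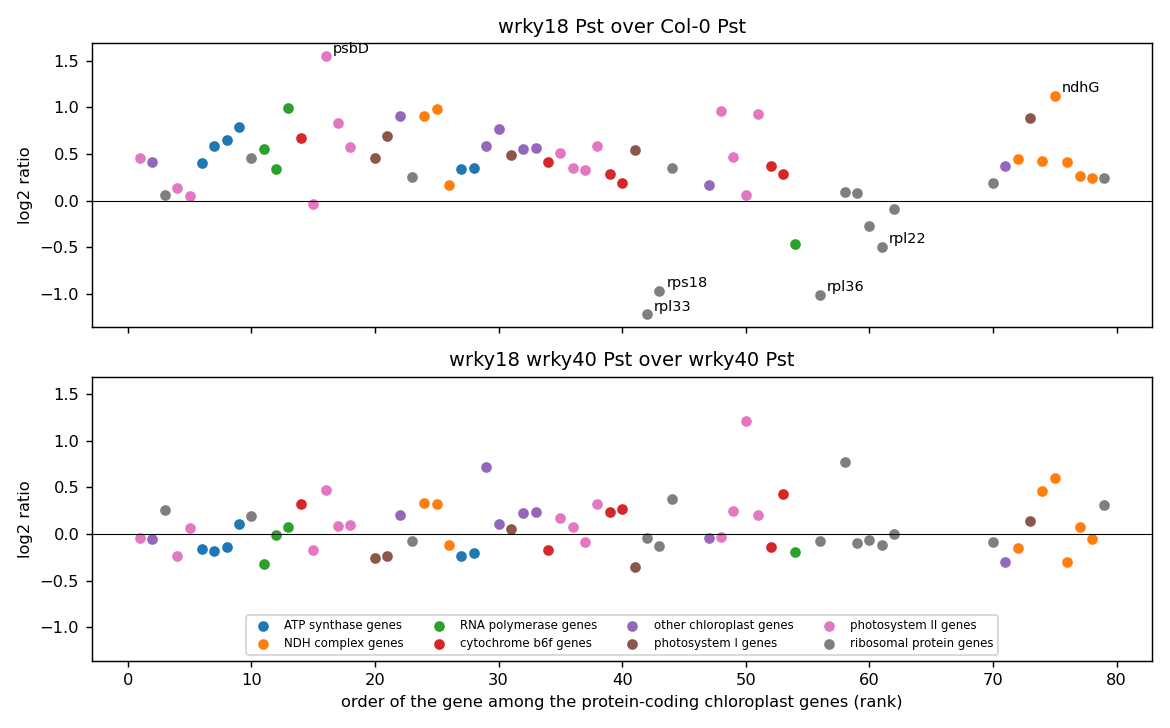
Log2 ratio of each measured chloroplast gene, in the order of the genes along the chloroplast chromosome, for wrky18 over Col-0 Pst (top) and the double knockout over wrky40 (bottom), coloured by group. The top panel has 59 of 67 genes above 0 and the low values at rpl33, rps18 and the stretch around rpl36; the bottom panel has 34 above 0.

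Genes that the mitochondrion encodes, among them subunits of respiratory complexes and of cytochrome c maturation, also had positive ratios, though only cox1 and ccb452 passed 2-fold. All 11 measured genes of 16 named ones were above 0, with a median of 0.72. At 1 to 2 times the floor 6 of these genes had a median of 0.60, against -0.003 for the other probe sets, of which 41.8% were above 0. At 2 to 5 times the floor 3 had a median of 1.05, against -0.07 for the others, of which 41.6% were above 0. cox1, a subunit of cytochrome c oxidase, had 151 on wrky18 against 71.8 on Col-0 Pst and 71.6 to 111 on the other 5 arrays, a log2 ratio of 1.07 to Col-0 Pst. ccb452, of cytochrome c maturation, was 2.07-fold higher, with 108 on wrky18 against 52.1 on Col-0 Pst. nad4, a subunit of respiratory complex I, had a log2 ratio of 0.95 and ccb382 0.72. Against Col-0 Pst the median was 0.25 on the double knockout, 0.16 on wrky40, 0.05 on wrky53, 0.91 on wrky60 and 0.00 on mock. All 11 stayed above 0 with spike-in scaling, where the median was 0.44. With the higher alternative floor, above most of these signals, 4 of the 11 were above 0 and the median was 0.00. With the lower floor the median was 0.88, so the 0.72 depends on where the floor lies. Between the double knockout and wrky40 the median was 0.05.

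Nuclear genes of photosynthesis differed less. Of 11 measured ones 8 were above 0, with a median log2 ratio of 0.20. Past 2-fold were 0, near the 0.426% of all probe sets. PSBW, a photosystem II gene, had 2057 on wrky18 against 1511 on Col-0 Pst and PSAE-1, a photosystem I gene, 3007 against 2731. These genes are bright, and the median of all probe sets at 50 times the floor and above was 0.21. On the double knockout over wrky40 10 of the 11 were below 0, with a median of -0.27.

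Other WRKY genes were close to Col-0 Pst. Of 6 measured ones 3 were above and 3 below 0, with a median of 0.01. Past 2-fold were 0, where 0.426% of all probe sets were. WRKY53, known for a role in leaf senescence, had 79.3 on wrky18 and 107 on Col-0 Pst, and 3.07 on the wrky53 array. WRKY6 had 130.1 on wrky18, 240.2 on the double knockout and 110.2 on Col-0 Pst. WRKY22, a gene of pattern-triggered immunity, had 152 on wrky18 and 146 on Col-0 Pst, and ZAP1 had the largest ratio of the list, -0.50.

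The jasmonate and pattern-triggered immunity lists held 0 members past 2-fold, which in short lists is near the 0.426% of all probe sets. Of 7 jasmonate and coronatine genes 5 were above 0, with a median of 0.21. Over Col-0 Pst the median of this list was 0.28 on the double knockout, 0.15 on wrky40, 0.27 on wrky53 and 0.075 on wrky60. PDF1.2b, a plant defensin gene, had 344 on wrky18, 583 on the double knockout, 227 on wrky40 and 205 on Col-0 Pst, a log2 ratio of 0.75 to the last. JMT and BSMT1, both carboxyl methyltransferase genes, had log2 ratios of -0.51 each. Between the double knockout and wrky40 all 7 were above 0, with a median of 0.42. Of 6 pattern-triggered immunity genes 4 were above 0 and 1 below, with a median of 0.19, and all 6 were above 0 on the double knockout over wrky40, with a median of 0.40. BIK1, a receptor-like cytoplasmic kinase gene, had 303 on wrky18 and 233.6 on Col-0 Pst.

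The lists of enzymes of secondary metabolism split. Of 10 measured cytochrome P450 genes, most from the CYP71B family, 3 were above 0 and 7 below, with a median of -0.08, and CYP71B24 passed 2-fold. On the double knockout over wrky40 all 10 were above 0, with a median of 0.40. CYP71B23 had 231 on wrky18 and 590 (589.8) on the double knockout, against 348 on wrky40 and 272 on Col-0 Pst. All 5 measured glutathione transferases were below 0, with a median of -0.19, and GSTL3 had 474 on wrky18 against 743 on Col-0 Pst. Over Col-0 Pst their median was -0.36 on the double knockout, -0.18 on wrky40, 0.18 on wrky53 and 0.085 on wrky60. Of 33 UDP-glycosyltransferases 19 were above 0 and 13 below, with a median of 0.10, and 0 passed 2-fold, against 0.426% of all probe sets.

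Over all probe sets 0.426% passed 2-fold, and 0 did among the leaf senescence genes, the subject of the study's title. In a list this short a count of 0 is near that share. Of 13 measured ones, mostly ATG8 genes of autophagy together with WRKY factors, 6 were above 0 and 7 below, with a median of -0.13. ATG8H had the largest ratio, with 77.9 on wrky18 against 132 on Col-0 Pst, a log2 ratio of -0.76. The median on the double knockout over wrky40 was 0.21. In the lists of beta-glucosidases, of plastid proteases and of ascorbate, glutathione and peroxide genes, the single member past 2-fold was in each case named above: BGLU33, SPPA and VTC4. Their medians were -0.17 over 8 genes, -0.01 over 3 and -0.05 over 8. All 5 cold and drought genes were above 0, with a median of 0.25, against -0.08 on the double knockout over wrky40. This median was not particular to wrky18. Over Col-0 Pst it was 0.27 on wrky40, 0.25 on wrky53, 0.18 on wrky60, 0.06 on the double knockout and -0.18 on mock. COR15A, a chloroplast cold-response gene, had 1387 on wrky18 against 1072 on Col-0 Pst. The 7 reference genes had a median of 0.09 and single values from -0.31 to 0.26. Of 33 lists, 11 had under 3 measured members and were not summarised.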

How the data were processed

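Each deposited value is a linear signal intensity from MAS5, the summary and scaling method named, without a version, in the submitters' processing notes. These intensities entered unchanged. The 7 groups held 1 array each, and 0 value columns were left unmapped. Array number and signal over background limit the precision. Log2 ratios were taken after the floor described above. The annotation gave 1 gene for 13513 of 22746 probe sets (13436 matched the TAIR10.1 gene table, used for names and gene order, and 77 kept the annotation's symbol), several for 503 and none for 8730. Members and gene lists were chosen with earlier results of these data known.

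Genes named were the 15 highest and 15 lowest past 2-fold, those past 2-fold on the same side in both pairs that differ by WRKY18, the WRKY genes, the 2 highest and 2 lowest probe sets without a single gene, and, of each list, the 3 brightest members and the one with the largest ratio. Some were left out of the text. Alternatives were a floor taken from the 25th or the 60th percentile, the floor added to each signal in place of a cut-off, quantile normalization with and without wrky60, median centring, cyclic loess, 1 probe set per gene, 3-fold, other comparators and, chosen after seeing the data, scaling to 18 spike-in probe sets. Functions were tested on simulated data. Python 3.11.15, numpy 2.4.6, pandas 2.3.3, matplotlib 3.10.9, R 4.3.3 and limma 3.58.1 were used.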

Additional observations from a re-analysis of the deposited data

Results flagged for a closer look

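Some genes past 2-fold between wrky18 and Col-0 Pst had the opposite sign between the double knockout and wrky40, the other pair that differs by WRKY18. Of all 25 higher probe sets 10 were below 0 there, where 53.9% of all measured probe sets lay below. Of all 72 lower ones 29 were above 0, where 44.6% of all measured ones lay above. Among the named probe sets higher on wrky18, the log2 ratio of the double knockout over wrky40 was -0.30 for AT2G22100, -0.40 for AT4G30150, -0.22 for AT2G35390 and -0.44 for probe set 266042_s_at. Among the named genes lower on wrky18 it was 0.89 for AT5G66550 and 0.37 for AT3G60810. AT3G52030, named here after its values were seen, had the largest opposite value, 0.98. With 1 array a side the difference between the pairs was not tested.

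The spike-in control probe sets, which are no part of the comparison, had a median ratio of 1.24 on wrky18 over Col-0 Pst.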

How the results depend on the processing

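No paired analysis was possible because each group holds 1 array, so the groups share no more than 1 replicate number. The cause of the changes below was not tested beyond what each alternative alters by construction. Counts of higher and lower probe sets were 214 and 260 with the lower floor (25th percentile), 9 and 20 with the higher floor (60th), 6 and 10 with log2 of signal plus the floor, 3 and 416 with spike-in scaling, 15 and 44 with 1 probe set per gene, and 1 and 2 at 3-fold. They were 46 and 39 with median centring. The count of lower probe sets was 37 with quantile normalization and 43 when that left out wrky60, and cyclic loess gave 39 higher. Counts that also differed from the other single knockouts were 63 and 149 with the lower floor, 0 and 4 with log2 of signal plus the floor, 11 and 21 with quantile normalization, 8 and 22 without wrky60, 9 and 21 with median centring, 0 and 159 with spike-in scaling, and 0 and 2 at 3-fold. On the lower side they were 9 with the higher floor and 22 with 1 probe set per gene. On the higher side they were 12 with loess and 1 against all 4 other knockouts.

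The median log2 ratio of the double knockout over wrky40 for the higher set, 0.47 in the report, was 0.00 with the lower floor, 0.60 with the higher floor, 0.21 with log2 of signal plus the floor, 0.30 with quantile normalization, 0.25 with median centring and 0.039 with spike-in scaling. For the lower set it was -0.19 with log2 of signal plus the floor. Each set was called again under each alternative. The chloroplast median was 0.28 with quantile normalization, 0.23 without wrky60, 0.24 with loess and 0.10 with spike-in scaling. The mitochondrial median was 0.88 with the lower floor, 0.00 with the higher floor and 0.44 with spike-in scaling. Of 272 log2 ratios of 34 named probe sets under 8 alternatives, 250 stayed within 1.5-fold, 22 moved further and 0 changed sign. Past 2-fold under all 8 were 5 of the 34.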
